A study of Mus musculus with 12 samples.

Results

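The Egr, Ier and Nr4a genes are immediate early response genes, whose transcription starts within minutes of a stimulus and needs no new protein. The 9 genes described here are Egr1, Egr2, Egr3, Ier2, Ier3, Ier5, Nr4a1, Nr4a2 and Nr4a3. They were selected by symbol, with their levels in all 6 groups of these data already known, and are 9 of the 21610 genes kept from the expression table. For that reason their levels and changes are given as a description, in which a test serves only to say whether a change passed a threshold, and no p-value is printed for them. The cells were 3T9MycER mouse fibroblasts, an immortalized embryonic line that carries MycER, a Myc protein fused to a hormone-binding domain that 4-hydroxytamoxifen (OHT) switches on. RNA-seq was done on 12 libraries in 6 groups of 2. Cells had the solvent DMSO, VP or Y27, each either alone or together with OHT (named DMSO + OHT, VP + OHT and Y27 + OHT). VP is verteporfin, an inhibitor of the YAP-TEAD interaction, used at 20 µM, and Y27 is Y27632, a ROCK inhibitor, used at 50 µM, each for 8 hours. All 12 libraries, those in DMSO included, carried MycER, so no group shows cells without the fusion protein. Whether the cells came from 1 clone was not given in the sources used here, nor were the dose and time of OHT for these libraries. The culture state was given in different ways: as quiescent and confluent in the series design, as grown with 10% serum in the sample labels, and as subconfluent and serum-starved in the study's text.

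Egr1, Egr2 and Egr3 are zinc-finger transcription factors that bind GC-rich sites. Nr4a1, Nr4a2 and Nr4a3 are orphan nuclear receptors, whose activity depends on how much of them is made. The Ier genes are grouped by their rapid induction and not by a shared fold. In fibroblasts, serum and growth factors induce Egr and Ier genes through ERK signaling and the serum response factor SRF, which binds the CArG box with its partners of the Elk and Mkl families. cAMP and calcium signals induce Nr4a genes through CREB-type factors, which bind sites holding TGACG.

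Promoter sequences from RefSeq on GRCm38.p6 were matched by symbol for 6 of the 9 genes. They are shown as background, and whether any motif had a part in the responses to the inhibitors was not tested. Each line holds the 250 bases before a transcription start on the gene's own strand, and capitals mark any match on either strand to 5 motifs: the CArG box, TGACG, the kappaB site bound by NF-kB, the E-box CACGTG bound by Myc, and GGAATG bound by TEAD. No matches overlapped in the 4 sequences shown. RefSeq listed 5 starts for Egr2, of which the one at position 67537869 is shown. The stretch before the start at 67535499 held 1 CACGTG and 2 overlapping kappaB matches, and that before 67537566 held 1 CArG box and 1 GGAATG. The stretches before the other two starts overlap the one shown and held the same 1 CArG box and 2 TGACG matches. Each stretch is upstream of the transcript that begins at its own start. The Egr2 stretch shown lies downstream of the starts at 67535499 and 67537566.
Egr2, chr10:67537619-67537868, plus strand: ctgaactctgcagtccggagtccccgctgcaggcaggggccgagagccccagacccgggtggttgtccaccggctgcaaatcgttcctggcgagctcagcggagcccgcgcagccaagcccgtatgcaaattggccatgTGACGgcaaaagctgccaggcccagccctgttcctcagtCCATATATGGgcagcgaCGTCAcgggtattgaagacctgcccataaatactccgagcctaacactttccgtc
Nr4a1, chr15:101266596-101266845, plus strand: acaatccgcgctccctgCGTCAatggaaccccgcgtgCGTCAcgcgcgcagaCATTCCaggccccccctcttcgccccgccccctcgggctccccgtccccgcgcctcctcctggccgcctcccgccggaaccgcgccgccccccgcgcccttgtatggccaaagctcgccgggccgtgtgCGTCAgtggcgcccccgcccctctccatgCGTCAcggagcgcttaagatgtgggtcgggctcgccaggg
Nr4a2, chr2:57124004-57124253, minus strand: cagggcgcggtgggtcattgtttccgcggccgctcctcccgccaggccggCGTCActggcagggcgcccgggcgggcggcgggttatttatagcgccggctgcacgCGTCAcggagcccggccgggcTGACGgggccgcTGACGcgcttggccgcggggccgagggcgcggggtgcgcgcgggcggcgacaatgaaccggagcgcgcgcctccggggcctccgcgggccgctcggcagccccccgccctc
Ier3, chr17:35821463-35821712, plus strand: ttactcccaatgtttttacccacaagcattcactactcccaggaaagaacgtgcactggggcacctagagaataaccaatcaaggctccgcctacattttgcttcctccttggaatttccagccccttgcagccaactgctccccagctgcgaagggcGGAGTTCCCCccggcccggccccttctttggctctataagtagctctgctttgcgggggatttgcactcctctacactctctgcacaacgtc
The Egr2 stretch shown held 1 CArG box, beginning 72 bases before the start, and 2 TGACG matches, at 111 and 55 bases before it. Nr4a1 and Nr4a2 held 4 TGACG matches each and no CArG box, and Nr4a1 also held 1 GGAATG. Ier3 held 1 kappaB site and none of the other motifs. Of 32851 RefSeq promoters of this length, 1.5% held a CArG box, 17.8% TGACG, 7.3% a kappaB site, 6.0% CACGTG and 12.6% GGAATG. Nr4a3 (4 TGACG matches and 1 GGAATG) and Ier5 (none of the 5 motifs) were searched in the same way. A match describes letters and was not tested as a binding site.

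Levels are RPKM, mapped reads scaled to transcript length and library size, so that genes can be compared per length. The libraries held 21857777 to 30856488 reads as recovered from the table. Values of 1 or more had lost their decimal sign in the deposited table and were restored. The highest of 10015 genes of at least 1000 bases reached 1.80 reads per base in any library, and Ier3 in the 4 VP libraries reached 1.42 to 1.56. Of the other members Ier2 reached 0.84 and Egr1 0.795 reads per base at most. Whether reads were capped at such levels, and whether ratios of the higher genes in VP were lowered by it, was not tested. Tests were run with limma on log2(RPKM + 1) over 11087 genes, a scale that understates the change of low genes, and a gene passed at a Benjamini-Hochberg adjusted p below 0.05. No source says that the 2 libraries of a group came from separate cultures, so the spread may be technical. The level in bulk RNA cannot tell fewer expressing cells from less RNA per cell. Of the fibroblast markers 9 of 12 had a mean of at least 0.5 RPKM. Their summed level was 271 to 277 RPKM in DMSO, 249 to 286 in DMSO + OHT, 149 to 161 in the 4 VP libraries and 279 to 336 in the 4 Y27 libraries. Macrophage markers summed to 2.23 to 3.43 RPKM outside VP and 8.97 to 12.1 with it. That sum was mostly Cd14 and Cd68, with Ptprc, Csf1r, Emr1, Itgam and Lyz2 at no more than 0.0691 in any library, and Ptprc, Emr1 and Lyz2 at 0 in at least 1. Epithelial markers summed to at most 0.10 and endothelial markers to at most 0.136 RPKM. The part of these shifts in the results below was not tested.

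**Figure D1:**
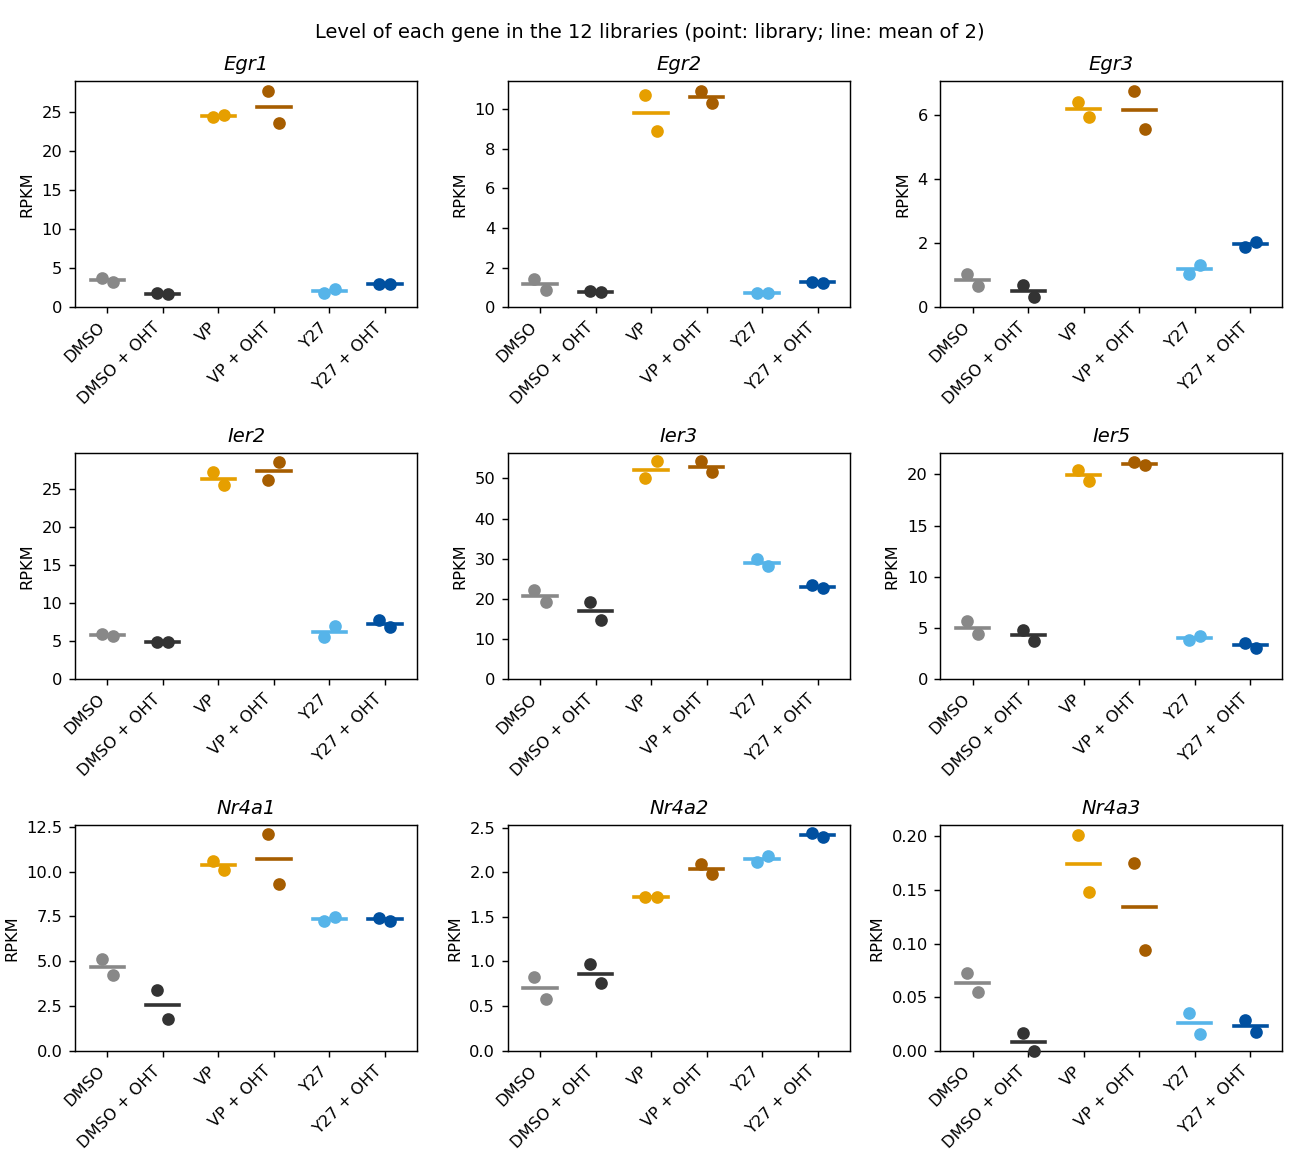
Level of each of the 9 genes in RPKM (vertical axis, from 0, scaled per gene) in the 6 groups; points are libraries and lines are means of 2. The VP and VP + OHT libraries are the highest for every gene but Nr4a2, whose Y27 + OHT mean of 2.41 RPKM is its highest.

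In DMSO the genes spanned from Ier3 at 20.7 ± 2.15 RPKM (SD, n = 2) to Nr4a3 at 0.0635 ± 0.0124. Ier3, a short protein linked to the control of apoptosis, was the most abundant member in every group. Next came Ier2 at 5.81 ± 0.176, Ier5 at 4.98 ± 0.901, Nr4a1 at 4.66 ± 0.659 and Egr1 at 3.48 ± 0.420. The libraries of Ier5 and Nr4a1 overlapped, while those of the other neighbours in this stretch did not. Egr2 at 1.15 ± 0.374, Egr3 at 0.850 ± 0.260 and Nr4a2 at 0.702 ± 0.179 followed, each overlapping with the next. All 9 genes were higher in replicate 1 than in replicate 2 of DMSO, and again of DMSO + OHT. In VP 7 of 9, in VP + OHT 8 of 9, in Y27 3 of 9 and in Y27 + OHT 7 of 9 were higher in replicate 1. The median difference of replicate 1 from replicate 2 over all tested genes was 0.08 (log2) in DMSO and 0.04 in DMSO + OHT. Nr4a3 was near the limit of detection, with 5 and 4 reads in DMSO when the lowest whole read counts were taken, and its mean over the 12 libraries was below the 0.5 RPKM needed for the test. Thus 8 of the 9 genes were tested, and every count below is of these 8.

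The comparison of VP with DMSO asks how the genes differed with verteporfin when no OHT was given. Whether the differences came through YAP-TEAD was not tested. All 8 tested genes rose, where 26.9% of the 11087 tested genes rose and 40.8% fell. The median log2 change of the 8 was 1.89, beside -0.08 over all tested genes. By the ratio of means the Egr genes changed most. Egr1, the most studied Egr factor and a direct target of ERK signaling, was at 3.78 and 3.19 RPKM in DMSO and at 24.4 and 24.7 in VP. Its mean was 7.04 times higher (6.44 to 7.74 over pairs of libraries), a log2 change of 2.51 ± 0.09 (SE). Egr2, a factor known for its part in myelination, was at 1.41 and 0.882 RPKM in DMSO and at 10.7 and 8.88 in VP, 8.53 times higher (6.29 to 12.1) and a log2 change of 2.33 ± 0.11. Both thus went from a few RPKM or less to well above any DMSO library. Egr3, a close relative of Egr1, was at 1.03 and 0.667 RPKM in DMSO and 6.42 and 5.93 in VP, 7.27 times higher (5.74 to 9.63), with a log2 change of 1.96 ± 0.13. The 3 Egr genes therefore shared a similar ratio although their DMSO levels differed. Egr4, the remaining family member, was not among the selected genes and was too low to test. It had 0 reads in both DMSO libraries, where a count of 0 allows up to 3 reads, and 87 and 64 reads in VP, or 1.34 and 1.17 RPKM.

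The Ier genes started higher and their ratios to DMSO were lower. Ier2, a small nuclear protein, was at 5.94 and 5.69 RPKM in DMSO and at 27.2 and 25.4 in VP. That was 4.52 times higher (4.27 to 4.79) with a log2 change of 2.00 ± 0.09. Ier5, which in human and mouse cells activates the heat shock factor Hsf1, was at 5.62 and 4.35 RPKM in DMSO and at 20.4 and 19.4 in VP, 3.99 times higher (3.45 to 4.69) and a log2 change of 1.81 ± 0.11. No VP library of either gene came near a DMSO library. Ier3 was at 22.2 and 19.1 RPKM in DMSO and at 50.0 and 54.4 in VP, 2.53 times higher (2.25 to 2.84) with a log2 change of 1.30 ± 0.11. Ier3 was also the member closest to the highest read density in the table.

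The Nr4a genes rose less than the Egr genes. Nr4a1 (Nur77), which is induced by many growth and stress signals, was at 5.13 and 4.20 RPKM in DMSO and at 10.6 and 10.1 in VP. The ratio was 2.21 (1.97 to 2.52) and the log2 change 1.0 ± 0.17. Nr4a2 (Nurr1), known for dopaminergic neurons, was at 0.828 and 0.575 RPKM in DMSO and at 1.72 in both VP libraries. The ratio of 2.45 (2.08 to 2.99) was close to that of Nr4a1, with a log2 change of 0.68 ± 0.09 on a scale that understates changes at such low levels. Nr4a3 (Nor1) had 16 and 10 reads in VP (0.201 and 0.148 RPKM) against 5 and 4 in DMSO (0.0723 and 0.0548 RPKM). Its libraries did not overlap, but so few reads give no firm ratio. With no filter on low values Nr4a3 was called higher in VP, at a log2 change of 0.14 ± 0.03. All 8 calls held with any library left out, and under every alternative in which the gene was tested.

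The same comparison with MycER active, VP + OHT against DMSO + OHT, again found all 8 genes higher, beside 25.4% higher and 39.1% lower of all tested genes. The median of the 8 was 2.17, beside -0.09. VP + OHT libraries of Egr1 were at 27.7 and 23.6 RPKM and those of DMSO + OHT at 1.83 and 1.65. The ratio was 14.7 (12.9 to 16.8), with a log2 change of 3.28 ± 0.09. For Egr2 the libraries were at 10.9 and 10.3 RPKM against 0.808 and 0.759, a ratio of 13.5 (12.7 to 14.4). The VP and VP + OHT libraries of both genes overlapped, and their means were lower in DMSO + OHT than in DMSO. Egr3 was at 6.74 and 5.57 RPKM against 0.679 and 0.314, a ratio of 12.4 (8.20 to 21.5). Ier2 was at 26.1 and 28.5 RPKM against 4.91 and 4.82, a ratio of 5.61, and Ier5 at 21.2 and 20.9 against 4.83 and 3.73, a ratio of 4.92. Ier3 was at 54.4 and 51.5 RPKM against 19.2 and 14.7, a ratio of 3.13. In the Ier genes the VP + OHT libraries stayed far from those in DMSO + OHT. Nr4a1 was at 12.1 and 9.32 RPKM against 3.39 and 1.76, a ratio of 4.14 (2.74 to 6.84), and Nr4a2 at 2.09 and 1.98 against 0.967 and 0.758, a ratio of 2.36. For Nr4a3 there were 13 and 7 reads in VP + OHT and 1 and 0 in DMSO + OHT. Egr4 had 81 and 58 reads against 5 and 3. The 8 calls held here in the same way.

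Inhibition of ROCK gave a different picture. Against DMSO, 3 of the 8 tested genes rose and 2 fell in Y27, where 17.1% of all tested genes rose and 33.5% fell. The 2 Nr4a genes tested were among the 3 that rose. Nr4a2 was at 2.11 and 2.18 RPKM in Y27 against 0.828 and 0.575 in DMSO, 3.05 times higher (2.54 to 3.79) with a log2 change of 0.89 ± 0.09. Nr4a1 was at 7.22 and 7.48 RPKM against 5.13 and 4.20, 1.58 times higher (1.41 to 1.78), a log2 change of 0.57 ± 0.17. Ier3 was at 29.8 and 28.1 RPKM against 22.2 and 19.1, a ratio of 1.4 (1.27 to 1.56) and a log2 change of 0.47 ± 0.11. In all 3 the Y27 libraries lay above both DMSO libraries. Egr1 fell, from 3.78 and 3.19 to 1.86 and 2.27 RPKM, a ratio of 0.593 (0.492 to 0.713) and a log2 change of -0.55 ± 0.09. Egr2 fell from 1.41 and 0.882 to 0.710 and 0.707 RPKM, a log2 change of -0.32 ± 0.11. Egr3 (log2 change 0.24 ± 0.13), Ier2 (0.07 ± 0.09) and Ier5 (-0.26 ± 0.11) did not pass. Within the Egr family, then, Egr1 and Egr2 were lower with Y27 while Egr3 was not. The Egr2 call was lost without DMSO replicate 1, where the log2 change was -0.14, without either Y27 library (-0.32 each), under quantile normalization (-0.11) and with no filter on low values (-0.32). The Nr4a1 call was lost without DMSO replicate 2 (0.45), without Y27 replicate 2 (0.54) and with no filter (0.57). Ier5 passed as lower without DMSO replicate 2 (-0.41) or either DMSO + OHT library (-0.26 each), and Egr3 as higher under quantile normalization (0.46).

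With MycER active, 7 genes were higher in Y27 + OHT than in DMSO + OHT and Ier5 was lower, beside 10.3% higher and 32.9% lower of all tested genes. Nr4a1 changed most on the log2 scale, from 3.39 and 1.76 to 7.41 and 7.25 RPKM, a ratio of 2.84 (2.13 to 4.21) and a log2 change of 1.26 ± 0.17. Egr3 went from 0.679 and 0.314 to 1.88 and 2.05 RPKM, a ratio of 3.96 (2.77 to 6.54) and a log2 change of 1.0 ± 0.13. Nr4a2 went from 0.967 and 0.758 to 2.44 and 2.39 RPKM, a log2 change of 0.88 ± 0.09. For these 3 genes every Y27 + OHT library was at least 2.13 times a DMSO + OHT library. Egr1 went from 1.83 and 1.65 to 2.95 and 3.02 RPKM, a log2 change of 0.54 ± 0.09, and was thus on the other side of its control than without OHT. Ier2 (log2 change 0.49 ± 0.09), Ier3 (0.43 ± 0.11) and Egr2 (0.33 ± 0.11) rose less. Ier5 went from 4.83 and 3.73 to 3.54 and 3.06 RPKM, a log2 change of -0.29 ± 0.11. The Ier5 call was the weakest. It was lost without DMSO + OHT replicate 1 (-0.14) or Y27 + OHT replicate 2 (-0.21), without any VP, VP + OHT or Y27 library (-0.29 each), under both other scalings (-0.18 with median-ratio scaling and -0.11 with quantile normalization), and, at -0.29 each, with no filter, in the fit over the 8 DMSO and Y27 libraries and without the genes placed by closeness. The Egr2 call was lost without any of the 4 libraries compared (0.31 to 0.35) or with no filter (0.33), and that of Ier3 without DMSO + OHT replicate 2 (0.25). Without OHT and with it, the 2 Y27 comparisons use different libraries.

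**Figure D2:**
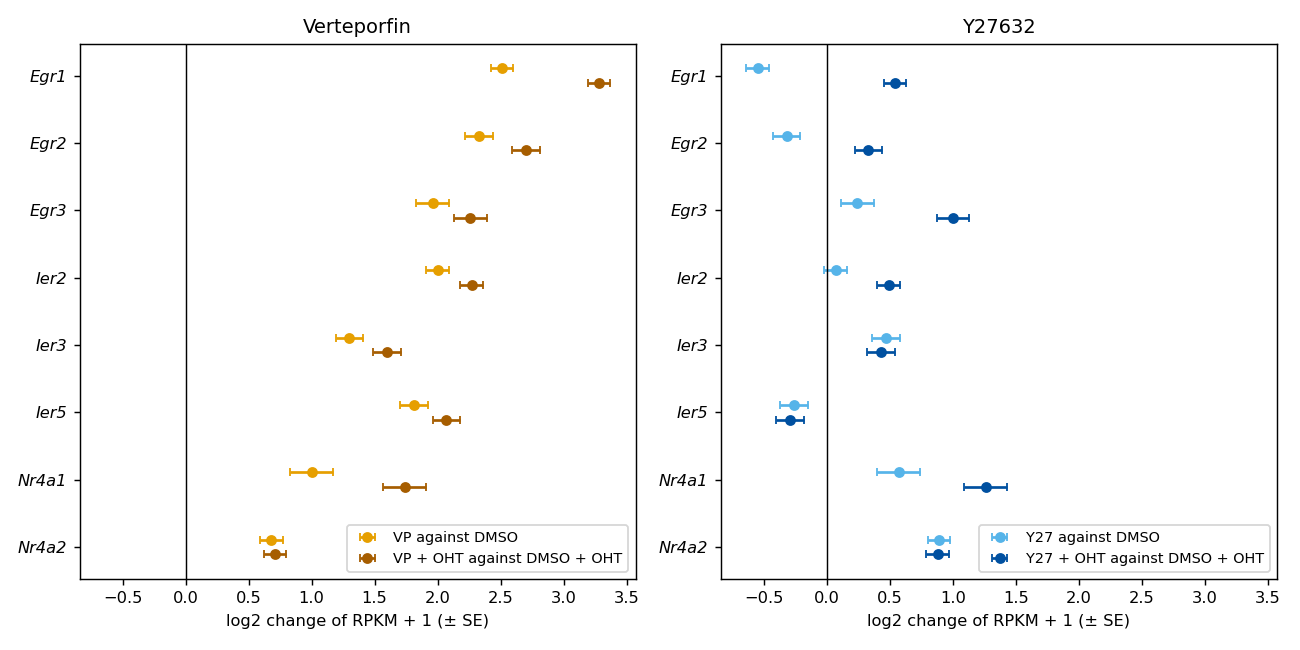
Log2 change of RPKM + 1 with its SE (horizontal axis) for the 8 tested genes with verteporfin (left) and Y27632 (right), without OHT (light) and with OHT (dark). All verteporfin changes lie above 0, from 0.68 to 3.28, while Y27632 changes run from -0.55 to 1.26 and those of Egr1 and Egr2 lie on opposite sides of 0 without and with OHT.

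VP and Y27 are unrelated compounds at different doses, so their libraries were set side by side at the shared time of 8 hours. Without OHT, 7 of the 8 genes were higher in VP than in Y27, where 34.3% of all tested genes were higher and 36.1% lower. The log2 differences ran from 3.06 ± 0.09 for Egr1 and 2.65 ± 0.11 for Egr2 to 0.44 ± 0.17 for Nr4a1. Egr1 was 11.9 times (10.7 to 13.2) and Egr2 13.8 times (12.5 to 15.1) as high in VP. Nr4a2 was the exception, with 1.72 in both VP libraries against 2.11 and 2.18 RPKM in Y27 (log2 difference -0.21 ± 0.09), which did not pass, and it passed in the same direction without any 1 library of DMSO or DMSO + OHT (-0.21) and under quantile normalization (-0.23). The Nr4a1 call was lost without any of the 4 libraries compared (0.41 to 0.47), with a pseudocount of 0.1 (0.48), with no filter (0.44) and under quantile normalization (0.42).

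With MycER activation in DMSO, Egr1 and Nr4a1 fell and none of the 8 genes rose. Past the same adjusted threshold, 24.1% of all tested genes were higher and 10.0% lower with OHT. At an unadjusted limma p below 0.05, 6 of the 8 were lower and 0 higher. The share of all tested genes at that looser cut was not counted, so the 6 have no background to be read against. Egr1 fell from 3.78 and 3.19 to 1.83 and 1.65 RPKM, a ratio of 0.499 (0.435 to 0.575) and a log2 change of -0.71 ± 0.09. Nr4a1 fell from 5.13 and 4.20 to 3.39 and 1.76 RPKM, a ratio of 0.553 (0.344 to 0.809) and a log2 change of -0.70 ± 0.17. The Egr1 libraries were close within each group, while those of Nr4a1 in DMSO + OHT lay far apart. The Nr4a1 call was lost without DMSO replicate 1 (-0.58). The log2 changes of the other genes were -0.31 ± 0.13 for Egr3, -0.28 ± 0.11 for Ier3, -0.26 ± 0.11 for Egr2, -0.22 ± 0.09 for Ier2, -0.18 ± 0.11 for Ier5 and 0.13 ± 0.09 for Nr4a2. None of these passed, and the libraries of Egr3, Ier3, Ier5 and Nr4a2 overlapped between the groups. Calls were gained when single libraries were left out: Egr2 without DMSO replicate 2 (-0.44), Egr3 (-0.49) and Ier3 (-0.46) without DMSO + OHT replicate 1, and Ier2 without either Y27 library (-0.22). Under median-ratio scaling Egr2 (-0.30), Ier2 (-0.31), Ier3 (-0.39) and Ier5 (-0.27) also passed as lower, as did Ier2 (-0.32) and Ier3 (-0.42) under quantile normalization, Egr3 with a pseudocount of 0.1 and Ier2 (-0.22) in the fit over the 8 DMSO and VP libraries. Nr4a3 had 5 and 4 reads in DMSO and 1 and 0 in DMSO + OHT, where 0 allows up to 3.

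In VP, none of the 8 genes passed the threshold with OHT, beside 5.75% of all tested genes in either direction. At an unadjusted limma p below 0.05, a cut at which all tested genes were not counted, 0 of the 8 changed. No direction is read from these changes, since those of 6 genes took the other sign under median-ratio scaling or quantile normalization. The log2 changes lay between -0.01 ± 0.13 for Egr3 and 0.16 ± 0.09 for Nr4a2, and the libraries of Egr1, Egr2, Egr3, Ier2, Ier3 and Nr4a1 overlapped between VP and VP + OHT. In Y27, the 3 Egr genes rose with OHT and Ier3 fell, beside 19.9% of all tested genes higher and 11.8% lower. Egr3 went from 1.05 and 1.31 to 1.88 and 2.05 RPKM (log2 change 0.45 ± 0.13). Egr2 went from 0.710 and 0.707 to 1.26 and 1.24 RPKM (0.40 ± 0.11). Egr1 went from 1.86 and 2.27 to 2.95 and 3.02 RPKM (0.38 ± 0.09). The ratios of the 3 were 1.67, 1.76 and 1.44, with no overlap between the groups. Ier3 went from 29.8 and 28.1 to 23.4 and 22.7 RPKM (-0.32 ± 0.11). Nr4a1 stayed at 7.41 and 7.25 against 7.22 and 7.48 RPKM (log2 change 0.00 ± 0.17). All 4 of these calls were lost when a library was left out: Egr1 without Y27 replicate 1 (0.28), Egr2 without any of the 4 libraries compared (0.39 to 0.40), Egr3 without Y27 replicate 1 (0.36) or Y27 + OHT replicate 2 (0.40), and Ier3 without any of the 4 (-0.36 to -0.28) or without either VP + OHT library (-0.32). With no filter the calls of Egr2 (0.40), Egr3 (0.45) and Ier3 (-0.32) were lost, and with a pseudocount of 0.1 that of Egr3 (0.70). Ier5 passed as lower under median-ratio scaling (-0.26) and quantile normalization (-0.29). Ier2 passed as higher without Y27 replicate 2 (0.34).

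Whether the OHT response differed between backgrounds was fitted as a difference of responses. For Egr1 the response in VP was higher than in DMSO by 0.77 ± 0.13 (log2), where 1.48% of all tested genes were higher in this sense, and the response in Y27 was higher than in DMSO by 1.09 ± 0.13, where 0.0541% were, or 6 of 11087 genes. Egr1 was the only 1 of the 8 genes past the threshold in either, and Nr4a1 in VP (0.73 ± 0.24) was not. The VP difference passed with any library left out. The Y27 difference was lost without DMSO replicate 1 (0.99), DMSO + OHT replicate 2 (1.04) or Y27 + OHT replicate 2 (1.08), and with no filter (1.09). For Y27 the differences of Egr3 (0.76 ± 0.18), Nr4a1 (0.69 ± 0.24) and Egr2 (0.65 ± 0.16) did not pass, and those of Ier3 (-0.04 ± 0.15), Ier5 (-0.03 ± 0.16) and Nr4a2 (-0.01 ± 0.13) were close to 0. In VP, Ier3 passed under quantile normalization (0.42). For Nr4a1 both differences passed without DMSO + OHT replicate 1, at 1.07 in VP and 1.03 in Y27. These 2 differences share the DMSO and DMSO + OHT libraries, and all comparisons with VP or Y27 against DMSO share those of DMSO.

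**Figure D3:**
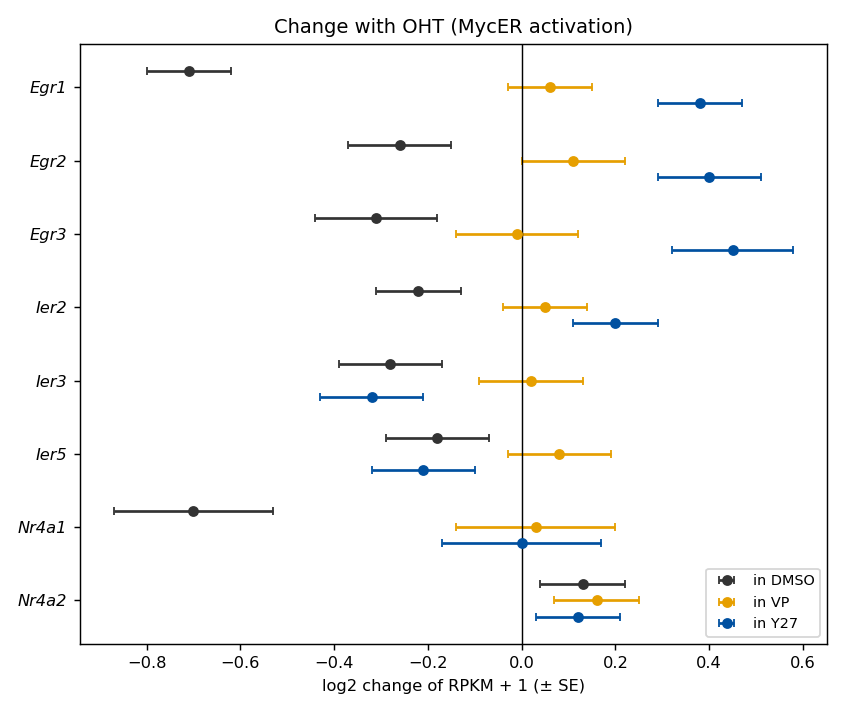
Log2 change of RPKM + 1 with OHT and its SE (horizontal axis) for the 8 tested genes in DMSO, VP and Y27. The change of Egr1 is -0.71 in DMSO, 0.06 in VP and 0.38 in Y27, and the VP changes of all 8 genes lie between -0.01 and 0.16.

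The members did not all follow the same pattern over the 12 libraries. Pearson's r of log2(RPKM + 1) over the 28 pairs of the 8 genes ran from 0.20 to 0.99 with a median of 0.90, as a description over libraries that share 6 groups. Egr1, Egr2 and Ier2 were at 0.99 with each other, and Ier5 was at 0.98 with Egr1 and Egr2. Nr4a1 was closest to Ier3 (0.89) and Egr3 (0.87). Nr4a2 stood farthest from the rest, at 0.76 with Nr4a1, 0.30 with Egr1 and 0.20 with Ier5. VP + OHT or VP was the highest group for 8 of the 9 genes and DMSO + OHT the lowest for 6, with Nr4a3 ranked on 0 to 16 reads. These ranks were not counted over all genes, so the counts have no background to be read against. For the most abundant member of each family, the 5 tested genes with the most similar profile were listed. Beside Egr1 these were Mt2 (r = 0.995), Egr2 (0.994), Gcnt4 (0.992), Coq10b (0.990) and Foxs1 (0.990). Beside Ier3 they were Zfp948 (0.993), Apba3 (0.992), Tagln2 (0.992), Hspa4l (0.992) and Znrf1 (0.991). Beside Nr4a1 they were Fosl2 (0.967), Rbpj (0.959), F3 (0.955), Cdc42ep4 (0.941) and Dusp8 (0.940).

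Partners of the members were measured with them. Like the members, these genes and the lists that follow were chosen with earlier results of these data known. Their adjusted p-values therefore only describe the data and are not an independent test. Nab1 and Nab2, corepressors that bind Egr factors and limit their activity, rose in VP. Nab1 was 1.97 times higher (log2 change 0.88 ± 0.08, adjusted p = 5.26e-07) and Nab2 1.53 times higher (0.59 ± 0.08, adjusted p = 1.29e-05), from 19.1 and 16.5 to 27.1 and 27.2 RPKM. Nab2 fell with OHT in DMSO (-0.25 ± 0.08, adjusted p = 0.0209), the same comparison in which Egr1 was lower, but not without DMSO replicate 1 (-0.15) or DMSO + OHT replicate 2 (-0.22). Of the retinoid X receptors, with which Nr4a1 and Nr4a2 can form dimers, Rxra fell in VP (-0.49 ± 0.08, adjusted p = 9.22e-05) and rose in Y27 (0.42 ± 0.08, adjusted p = 0.000553), and Rxrb rose with OHT in DMSO (0.32 ± 0.09, adjusted p = 0.0128), but not without DMSO replicate 2 (0.20) or DMSO + OHT replicate 1 (0.26). Hsf1 rose with OHT in DMSO (0.35 ± 0.07, adjusted p = 0.00161), where Ier5 did not pass. It rose in VP (0.55 ± 0.07, adjusted p = 7.71e-06), as did its partner Ier5, and rose in Y27 (0.34 ± 0.07, adjusted p = 0.000971), where Ier5 did not pass. Ier5l, a gene related to Ier5, rose in Y27 (0.58 ± 0.14, adjusted p = 0.00328), from 18.4 and 16.5 to 25.6 and 27.4 RPKM.

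A list of 46 other immediate early genes, of which 45 were tested, was counted beside the members. In VP 37 rose and 3 fell, with a median log2 change of 1.43, where 26.9% of all tested genes rose and 40.8% fell with a median of -0.08. Without DMSO replicate 1, 38 rose and none fell. With no filter 46 were tested, of which 37 rose and 2 fell. Fosl1 reached the filter of 0.5 RPKM only through VP, at 5.51 and 4.80 RPKM in VP and at most 0.197 in any library without VP. Its rise in VP is thus not independent of the filter, and its changes in Y27 and with OHT in DMSO rest on low levels. On the log2(RPKM + 1) scale the largest changes were those of Nfkbiz (2.83), Arc (2.76), Atf3 (2.65) and Tnfaip3 (2.64), an order that is not that of the ratios. In Y27 16 rose and 10 fell, with a median of 0.14, where 17.1% of all tested genes rose and 33.5% fell with a median of -0.07. They were led by Klf4 (2.78) and Klf2 (1.63), Krüppel-like factors that rose, and Ctgf (-2.67) and Gadd45g (-1.57), which fell. With OHT in DMSO 4 rose and 16 fell, with a median of -0.22, where 24.1% of all tested genes rose and 10.0% fell with a median of 0.06. With no filter 2 rose and 6 fell, under median-ratio scaling 24 fell and under quantile normalization 23 fell. Without DMSO replicate 1 only 6 fell there, without DMSO + OHT replicate 2 only 7, and without DMSO replicate 2 or DMSO + OHT replicate 1 only 2 rose. In the list of 22 upstream factors, 21 were tested. Srf fell in Y27 from 20.6 and 17.8 to 6.20 and 7.45 RPKM (log2 change -1.37 ± 0.11, adjusted p = 7.34e-07). In VP, Srf was at 19.2 and 18.8 RPKM. Elk3, an SRF partner that can repress, fell in VP (-1.20 ± 0.08, adjusted p = 2.29e-08), as did Mapk3, which encodes the kinase ERK1 (-0.76 ± 0.08, adjusted p = 1.27e-06), and Mkl1 (-0.76 ± 0.10, adjusted p = 1.64e-05), while the CREB relative Crem rose (0.72 ± 0.07, adjusted p = 1.68e-06). In all, 6 of the 21 upstream factors rose and 7 fell in VP, where 26.9% of all tested genes rose and 40.8% fell, and 9 rose under both other scalings. In Y27 5 rose and 3 fell, where 17.1% of all tested genes rose and 33.5% fell, and 10 rose under quantile normalization. Mapk3, lower in VP, was at 22.2 and 24.7 RPKM in Y27 against 15.4 and 14.0 in DMSO. With OHT in DMSO 1 of the upstream factors rose and 5 fell, where 24.1% of all tested genes rose and 10.0% fell. Under both other scalings 8 fell there.

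**Figure D4:**
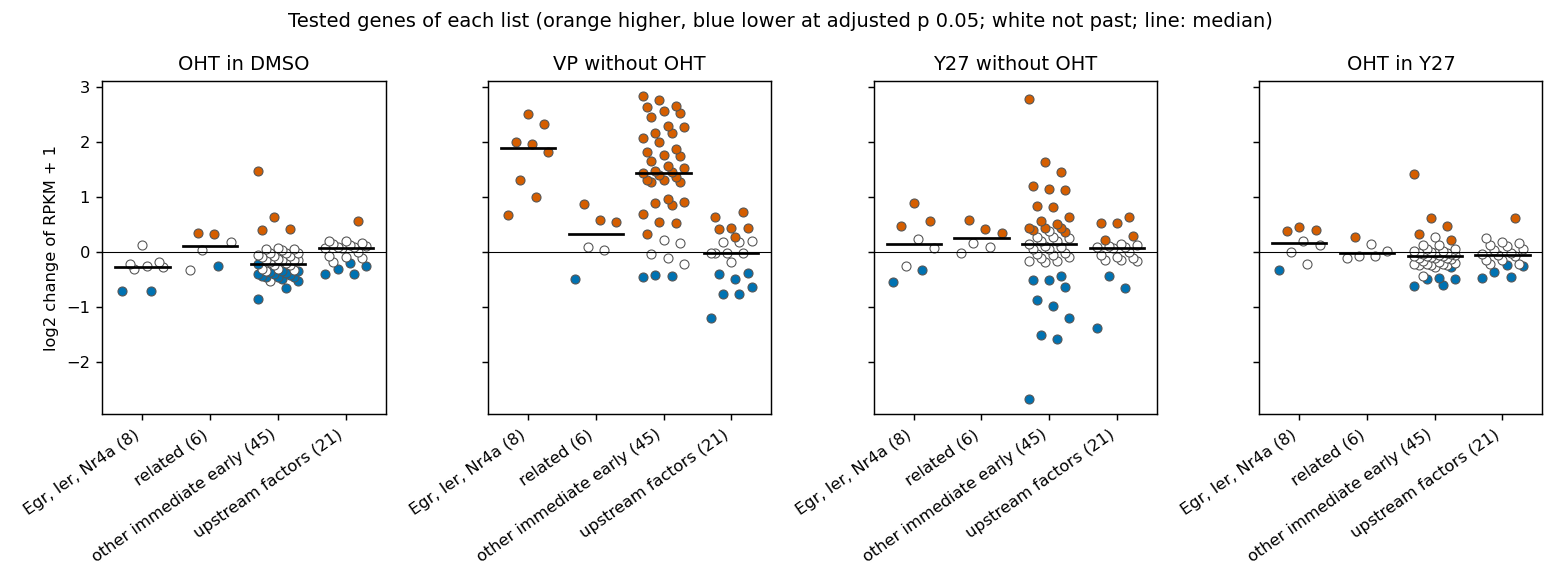
Log2 change of RPKM + 1 (vertical axis) of the tested genes in each list for 4 comparisons; filled points passed the threshold and lines are medians. In VP the medians are 1.89 for the 8 members and 1.43 for the 45 other immediate early genes, beside -0.01 for the 21 upstream factors.

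Over all tested genes the share of calls that were higher depended on scaling. It was 70.6% of calls for OHT in DMSO as deposited and 46.0% under median-ratio scaling, 39.7% and 49.1% for VP, 33.8% and 46.4% for Y27, 91.5% and 68.8% for OHT in VP, 62.7% and 48.4% for OHT in Y27, 39.4% and 50.5% for VP with OHT, and 23.8% and 47.5% for Y27 with OHT. Under quantile normalization the shares were 48.4%, 51.1%, 52.3%, 62.4%, 44.6%, 50.3% and 49.9% in the same order. The median log2 change of all tested genes moved by 0.11 under both for Y27 with OHT, by up to 0.10 for the others. No member's call was reversed under either, though small changes that had not passed took the other sign.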

How the data were processed

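RNA-seq of 12 libraries, 2 in each of 6 groups, was processed by the authors with TopHat2 (2.0.8), SAMtools and featureCounts (1.4.5-p1) on mm9, per the labels. Their library kit was used without its poly-T selection step. DESeq2 made the authors' comparison tables, in a version not given in the sources used here.

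The deposited expression table holds the authors' RPKM values, in which 46.4% of values had lost their decimal sign. Each sign was put back where reads came out whole at 1 transcript length per gene, with closeness of the libraries used for 2621 genes (Egr1 and Ier3 among them). Of 21671 genes 21610 were kept. Digits of the authors' deposited mean normalized counts were used to check the result and matched for 99.82 to 99.91% of genes per table, and 33 genes that did not match were left out. Where such a mean had also lost its decimal sign, only its digits were compared. A shift of all places of a gene by the same factor would not show there. The authors' columns of log2 fold change, SE, statistic and p-value were not used.

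The 11087 genes whose mean reached 0.5 RPKM were tested with limma (3.58.1, in R 4.3.3) on log2(RPKM + 1), in a fit of all 6 groups with a mean-variance trend, 6 residual degrees of freedom and Benjamini-Hochberg adjustment. The tests are two-sided, at a threshold of 0.05. The 9 members and the lists were chosen with earlier results of these data known. The members were always named, and related genes where tested. From each other list at most 4 genes a comparison were named, taken from the largest log2 changes. These were genes past the threshold whose groups did not overlap. In Y27 only Srf of the upstream factors was given with a log2 change, which does not mean that no other met the rule. With OHT in DMSO no gene of either list was named by the rule, which does not mean that none met it. Levels of Dusp2 and Myc are given there instead, without a log2 change. Alternatives were a pseudocount of 0.1, no filter, a minimum mean of 2 RPKM, median-ratio scaling, quantile normalization, fits over 8 libraries, a replicate block, leaving out the genes placed by closeness, and leaving out each library. The depth, 21857777 to 30856488 reads a library, left Nr4a3 at 0 to 16 reads.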

Additional observations from a re-analysis of the deposited data

Results flagged for a closer look

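For Egr1 the change with OHT differed between backgrounds in both tests of the difference. The log2 change with OHT was higher in VP than in DMSO by 0.77, with levels of 24.5 and 25.6 RPKM without and with OHT in VP and of 3.48 and 1.74 in DMSO. It was higher in Y27 than in DMSO by 1.09, with levels of 2.07 and 2.99 RPKM in Y27. The Y27 difference was lost without DMSO replicate 1, DMSO + OHT replicate 2 or Y27 + OHT replicate 2, and with no filter. Both tests compare log2 changes. In VP + OHT the SD was 2.91 RPKM, so a fall of the size in DMSO, in RPKM, could be missed there. Groups of 2 libraries were too small for a check for libraries that stand apart.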

How the results depend on the processing

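None of the calls among the 80 results of the 8 tested members was reversed, with 1483 of the values on the same side of the threshold, 56 calls lost and 31 gained. The sign turned in 34 values of 12 uncalled results, whose reported changes were at most 0.11 in size. Of 23 results of other named genes, 452 values stayed on the same side and 4 calls were lost. Most member calls lost were small changes in Y27 or with OHT in Y27. Leaving out the filter cost 9 of them. Counts over all genes moved most for the differences of OHT responses and for OHT in VP. The 637 genes that passed for OHT in VP were 410 under median-ratio scaling and 79 to 705 with a library left out, and the 3777 for OHT in DMSO were 2322 to 3894 with a library left out. The 446 of the VP difference were 199 with no filter, 1173 after quantile normalization, 695 after median-ratio scaling and 121 to 467 with a library left out. The 7 of the Y27 difference were 22 with a pseudocount of 0.1, 55 after quantile normalization, 66 after median-ratio scaling, 12 in the fit over 8 libraries, 2 without genes placed by closeness and 1 to 15 with a library left out. The cause of these shifts was not tested. The main fit did not pair libraries by replicate number. Over the 15 pairs of groups the correlation of their deviations ran from -0.22 to 0.28, above 0.1 in 2. All 9 members were higher in replicate 1 of both DMSO and DMSO + OHT. The median difference over all tested genes had the same direction, at 0.08 and 0.04 (log2), and the share of all genes higher in replicate 1 was not counted. Whether the replicate numbers pair the libraries for these genes was not tested. With the replicate block, 3681 genes passed for OHT in DMSO, 7454 for VP, 5531 for Y27, 607 for OHT in VP and 5 for the Y27 difference, and among members Ier3 (OHT in DMSO, -0.28), Ier5 (Y27, -0.26) and Nr4a2 (VP against Y27, -0.21) gained a call. Levels below 1 RPKM, as of Nr4a3 and Egr4, rest on few reads.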
